A study of Mus musculus with 6 samples.

Results

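Foxp3 and the transcription factors that work beside it in regulatory T cells (Treg cells) were followed through the deposited expression table: Foxp3 itself, the Ikaros family (Ikzf1, Ikzf2, Ikzf3, Ikzf4 and Ikzf5) and the Runx complex (Runx1, Runx3 and Cbfb). These 9 genes were taken by symbol from 24453 symbols, each as the transcript row with the highest mean value over all libraries, and all 9 passed the filter on low values. RNA came from CD4+Foxp3+ Treg cells sorted from healthy female C57BL/6 mice, in 3 libraries labelled WT (genotype wording: WT Tg) and 3 labelled miR-27 Tg. The design text states that miR-27a is overexpressed in Treg cells specifically, and the title names the mice Foxp3cre het, that is, heterozygous for a Cre recombinase under Foxp3 control. Foxp3 lies on the X chromosome, and each cell of a female keeps a single X active. Whether the WT group carried the Cre or another transgene, and the age of the mice, are not given in the sources used here. No label says that each library is a mouse of its own, so the p-values below speak of the spread among these libraries, some of which may be technical. The sort itself selected cells that express Foxp3, so the Foxp3 level is that of cells already chosen for it.

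Foxp3 is a forkhead transcription factor that defines Treg cells and is needed for their suppressive function. It acts in large complexes. Runx proteins bind DNA together with Cbfb, a partner that contacts no DNA itself, and Runx-Cbfb binds both Foxp3 protein and the Foxp3 gene, where it helps to keep Foxp3 expressed. Ikaros family proteins are zinc finger factors that pair with one another and recruit co-repressors such as the NuRD complex. Ikzf2 (Helios) and Ikzf4 (Eos) are the members most tied to Treg identity, Ikzf1 (Ikaros) and Ikzf3 (Aiolos) are abundant in lymphocytes generally, and Ikzf5 (Pegasus) is a divergent member.

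The microRNA that was overexpressed recognises messenger RNAs mainly through its seed, bases 2 to 8. The mature sequences of miR-27a-3p and of its homologue miR-27b-3p are shown because they share that seed, in capitals (RefSeq, GRCm38.p6).
mmu-miR-27a-3p: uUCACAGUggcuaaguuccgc
mmu-miR-27b-3p: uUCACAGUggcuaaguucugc
The complement of the seed, ACTGTGA, was searched in the 3′ UTR of the longest coding transcript of each gene (GENCODE M21, GRCm38). It occurred once each in Ikzf1, Ikzf2, Ikzf5, Runx1 and Cbfb and was not found in the 3′ UTRs of Foxp3, Ikzf3, Ikzf4 and Runx3. The matches are shown with their surroundings, the match in capitals. They divide the 9 genes into those with and those without a match to bases 2 to 8 in the 3′ UTR searched. Shorter matches, coding regions and other transcripts were not searched.
Ikzf1, chr11:11772847-11772876, plus strand: gctatggcactcACTGTGAataagtgtgac
Ikzf2, chr1:69533374-69533403, minus strand: tcaaattatggaACTGTGAtctaaaaacgg
Ikzf5, chr7:131389155-131389184, minus strand: ttttttaaagaaACTGTGAagagattaaca
Runx1, chr16:92605539-92605568, minus strand: tcccggagggaaACTGTGAatgcttctgat
Cbfb, chr8:105216038-105216067, plus strand: gggcgaccagaaACTGTGAcaactggaggg
The matches of Ikzf1, Ikzf5 and Runx1 were followed by an A, the base that extends such a site opposite base 1 of the microRNA. The Runx1 and Cbfb matches began 99 and 124 bases into 3′ UTRs of 4189 and 2055 bases, the Ikzf1 match at base 3278 of 3345, the Ikzf5 match at base 2465 of 2985 and the Ikzf2 match at base 5377 of 7554. Of 11815 tested genes with a 3′ UTR searched, 16.5% held at least 1 match, and the share was 28.6% for 3′ UTRs of 2000 to 4000 bases and 46.3% for those of 4000 bases or more. A match is a description of the letters, not evidence that the microRNA acts there.

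Depth was 34400000 to 42100000 counted reads per library. This is a total over all transcript rows, in which a read in a shared exon counts for each row, so it exceeds the number of distinct reads. RPKM here is reads per kilobase of transcript and per 10000000 counted reads, so values can be compared between genes of different length. Mir27a, the hairpin of the overexpressed microRNA, had 9, 13 and 8 reads in WT against 2921, 2206 and 2339 in miR-27 Tg, as the genotype labels of all 6 have it. The T cell markers Cd3e (1320 to 1893 RPKM over the 6 libraries), Cd4 (1864 to 2293) and Il2ra (867 to 1044) were high in every library. Of 15 myeloid markers tested, 12 had a fold change above 0, with a median log2 fold change of 1.16 (0.81 to 1.60 over 10 alternatives), and 8 had an unadjusted p under 0.05, all of them higher in miR-27 Tg. The summed level of the 16 markers was 1782 to 2163 RPKM in the WT libraries against 1663 to 3076 in those of miR-27 Tg, most of it from the protease gene Ctss (1481 ± 193 and 1365 ± 230 RPKM). Itgam, the myeloid integrin chain CD11b, rose from 4.41 ± 0.487 to 16.4 ± 0.583 RPKM (SD, n = 3, log2 fold change 1.69, adjusted p = 0.0118 by limma), a call lost with no filter on low values and without WT replicate 1, WT replicate 3 or miR-27 Tg replicate 3 (adjusted p 0.0536, 0.0536, 0.0531 and 0.0703). Ikzf1, Runx1 and Runx3 are also expressed in myeloid cells, and the part of this difference in their values was not tested. Of the other marker lists reported here, erythroid cells had 0 of 5 tested genes past the threshold (the smallest p were those of the globin genes Hbb-bt, 4.99 ± 3.62 and 3.50 ± 2.27 RPKM, and Hba-a2, 6.30 ± 5.27 and 4.997 ± 5.65, which have near-identical copies), CD4 T and Treg cells 0 of 8, and CD8 T and NK cells 2 of 10, Nkg7 and Xcl1, which both fell. The calls of Nkg7 and Xcl1 were each lost in 6 of 17 alternatives. At an unadjusted p under 0.05 the erythroid list had 0 genes and the CD4 T and Treg list 1, Ctla4. It was lower in miR-27 Tg, with 3436 ± 324 and 2335 ± 234 RPKM and groups that did not overlap. Its log2 fold change was -0.56 (adjusted p = 0.0868 by limma, past the threshold with quantile normalization). In that list 4 fold changes were above and 4 below 0. The CD8 T and NK list had 6 such genes, of which 4 were lower in miR-27 Tg. The other 2, Cd8b1 (81.3 ± 18.2 and 135.9 ± 39.3 RPKM) and Klrd1 (7.06 ± 3.22 and 22.5 ± 13.99), were higher. Over all 13621 genes tested, 1.03% passed the threshold and 13.0% had an unadjusted p under 0.05 by limma. The part of these markers in the results below was not tested.

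Neither Foxp3 nor any gene of the Ikaros family or of the Runx complex passed the test between miR-27 Tg and WT. The comparison asked whether the factors that set Treg identity differ in amount when miR-27 is overexpressed. By limma on log2(RPKM + 1), 0 of the 9 genes passed an adjusted p of 0.05, whereas 1.03% of the 13621 genes tested did. None of the 9 was called higher, against 0.374% of all genes, and none lower, against 0.653%. At an unadjusted p under 0.05 there was 1 gene, Ikzf2, against 13.0% of all genes, and 1 gene, Ikzf4, had groups that did not overlap, against 18.5% of all genes. Of the 9 fold changes 6 were below 0, as were 52.9% of those of all genes, with a median of -0.10 on the log2 scale, beside -0.01 over all genes tested. For 8 of the 9 genes the 95% confidence interval lay within 1.5-fold in either direction, which held for 61.4% of all genes tested. The exception was Ikzf2, whose interval reached from 0.521-fold to 0.945-fold. In these bulk libraries a smaller share of cells that express a gene and less of its RNA per cell cannot be told apart. A p that misses the threshold does not show equal levels, and the intervals give the sizes these libraries leave possible.

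**Figure D1:**
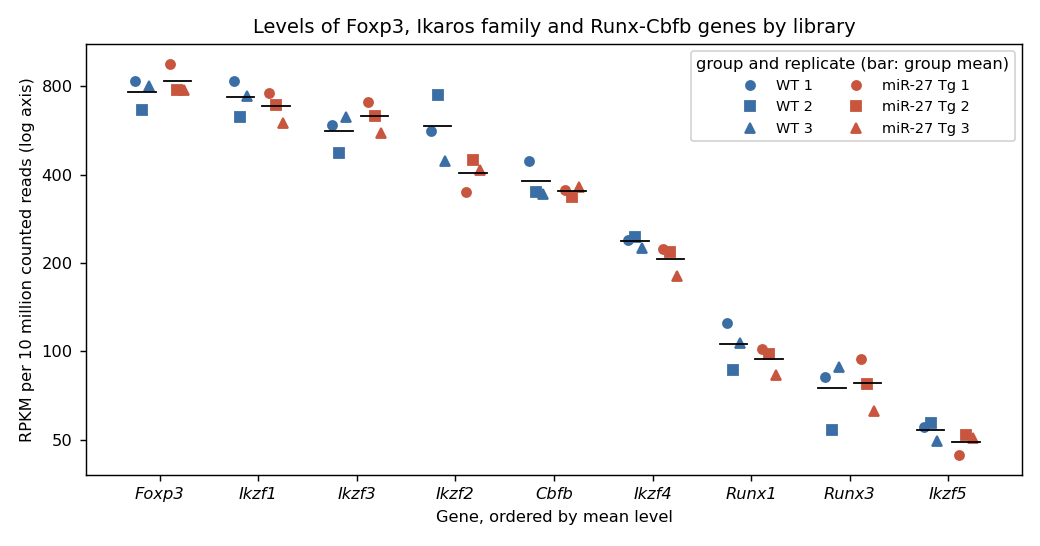
RPKM (log axis) of each gene in each library, blue for WT and red for miR-27 Tg, with marker shape for the replicate and a black bar for the group mean. The genes run from Foxp3 at a mean of 799.9 RPKM to Ikzf5 at 51.5, and the groups overlap for all genes but Ikzf4.

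Foxp3 (NM_054039, mm10 chromosome X, 7579676 to 7595243, plus strand) had 830, 662 and 801 RPKM in replicates 1 to 3 of WT against 955, 774 and 777 in those of miR-27 Tg. The groups overlapped: the lowest library was WT replicate 2 and the highest was miR-27 Tg replicate 1. The log2 fold change was 0.13 (SE 0.13, 95% interval -0.16 to 0.42, adjusted p = 0.750 by limma). As a fold change the interval runs from 0.895-fold to 1.34-fold. It holds for the sorted cells as a whole, and the share of them with an active Cre is not known here. Foxp3 messenger RNA had the highest mean RPKM of the 9 genes over the 6 libraries, although Ikzf1 was just above it in WT replicate 1 and Ikzf2 was above it in WT replicate 2, and it stood at percentile 97.2 of the genes tested. Exons of Ccdc22, of the non-coding RNA Flicr and of a predicted gene cover 20.4% of the exonic bases of the matched transcript, and reads there cannot be told apart. The row that starts at the upstream promoter (3750 bases) held 574 to 957 more reads per library than the row that starts downstream (3675 bases), and the log2 fold changes of the 3 Foxp3 rows were 0.12 to 0.13.

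Ikzf1, Ikzf3 and Ikzf2 of the Ikaros family held the next mean levels, ahead of Cbfb, with Ikzf4 below Cbfb and Ikzf5 last. Ikzf1 (NM_001301865, chromosome 11, 11690177 to 11772926, plus strand) had 833, 627 and 743 RPKM in WT against 761, 689 and 599 in miR-27 Tg. The group ranges overlapped over most of their length (log2 fold change -0.10, 95% interval -0.41 to 0.20, adjusted p = 0.827 by limma). Its 6 transcript rows had log2 fold changes of -0.11 to -0.09.

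Ikzf2, which encodes Helios and marks most Treg cells that arise in the thymus (NM_011770, chromosome 1, 69531210 to 69685960, minus strand), had 561, 749 and 446 RPKM in WT against 347, 450 and 413 in miR-27 Tg. WT replicate 2 stood far above the other libraries, and WT replicate 3 lay just below miR-27 Tg replicate 2, so the groups overlapped. The mean was 585 ± 153 RPKM in WT against 404 ± 51.8 in miR-27 Tg (SD, n = 3 in each), a ratio of means of 0.689. The log2 fold change of -0.51 (SE 0.19, 95% interval -0.94 to -0.08) was the largest of the 9 and had an unadjusted p = 0.0253 and an adjusted p = 0.290 by limma, so it did not pass. Without WT replicate 2 it was -0.32 and without WT replicate 3 it was -0.69. Over all alternatives the adjusted p of Ikzf2 ranged from 0.131 to 0.672.

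Ikzf3, the Aiolos gene (NM_011771, chromosome 11, 98464693 to 98546031, minus strand), had 590, 473 and 628 RPKM in WT against 707, 632 and 554 in miR-27 Tg. The highest library was a miR-27 Tg library and the lowest a WT library, yet miR-27 Tg replicate 3 lay within the WT range. The log2 fold change was 0.17 (95% interval -0.14 to 0.48, adjusted p = 0.683 by limma).

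Ikzf4 encodes Eos, a co-repressor partner of Foxp3 (NM_011772, chromosome 10, 128632415 to 128645993, minus strand). It had 240, 246 and 225 RPKM in WT against 223, 218 and 180 in miR-27 Tg. Every miR-27 Tg library lay below every WT library, although the nearest pair, WT replicate 3 and miR-27 Tg replicate 1, differed by less than the spread within either group. The log2 fold change was -0.20 (SE 0.11, 95% interval -0.44 to 0.04, adjusted p = 0.495 by limma).

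Ikzf5 (NM_175115, chromosome 7, 131388649 to 131410478, minus strand) was the lowest of the 9, with 55.3, 57.1 and 49.6 RPKM in WT against 44.3, 51.9 and 50.7 in miR-27 Tg. The groups overlapped, and the log2 fold change was -0.14 (95% interval -0.41 to 0.13, adjusted p = 0.697 by limma). Exons of Pstk and of a predicted gene cover 84.8% of the exonic bases of its matched transcript, so most of its reads cannot be assigned to Ikzf5 alone.

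**Figure D2:**
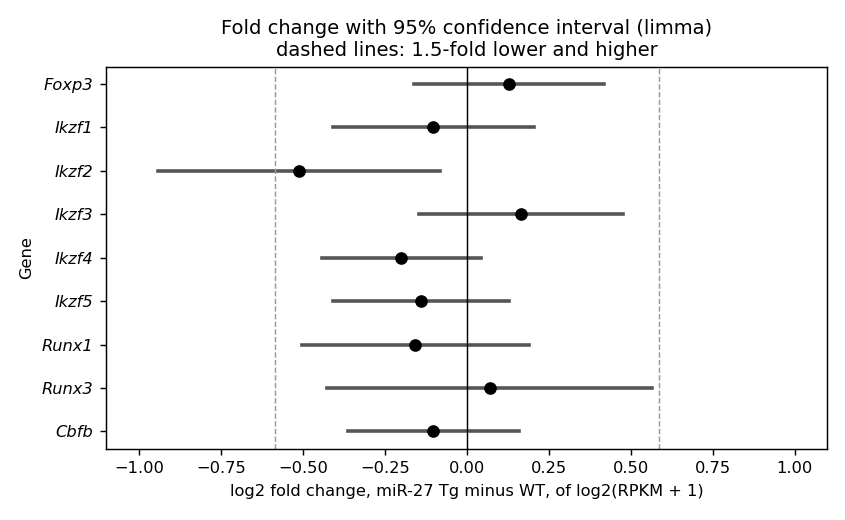
Log2 fold change of each gene, miR-27 Tg minus WT, on the log2(RPKM + 1) scale (dot) with its 95% confidence interval from limma (bar, n = 3 per group), and dashed lines at 1.5-fold. The Ikzf2 interval (-0.94 to -0.08) is the one that leaves the dashed lines and does not cross 0.

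Because the Ikaros proteins pair with one another, their proportions were compared within each library, a measure that does not depend on how libraries are scaled. Ikzf1 made up 33.7% ± 4.03 of the summed RPKM of the 5 genes in WT against 34.5% ± 1.74 in miR-27 Tg (SD, n = 3). The share of Ikzf2 was 24.6%, 34.8% and 21.3% in WT against 16.7%, 22.0% and 23.0% in miR-27 Tg. These shares overlapped, with a difference of -6.34 percentage points (exact permutation test, two-sided, p = 0.30). The share of Ikzf3 was 25.9%, 22.0% and 30.01% in WT against 33.9%, 31.0% and 30.8% in miR-27 Tg. It was the one share whose groups did not overlap, higher by 5.96 percentage points in miR-27 Tg, with the smallest p that an exact permutation test of 3 against 3 can give (p = 0.10, and 0.50 after Benjamini-Hochberg adjustment over the 5 shares). The shares are parts of a whole, so each depends on the levels of the other genes, and the level of Ikzf3 itself overlapped between the groups. Ikzf4 contributed 10.9% ± 0.458 and 10.5% ± 0.397, and Ikzf5 2.48% ± 0.149 and 2.496% ± 0.349, although most reads of Ikzf5 cannot be assigned to it alone. Ikzf3 was above Ikzf2 in 5 of 6 libraries, the exception being WT replicate 2.

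**Figure D3:**
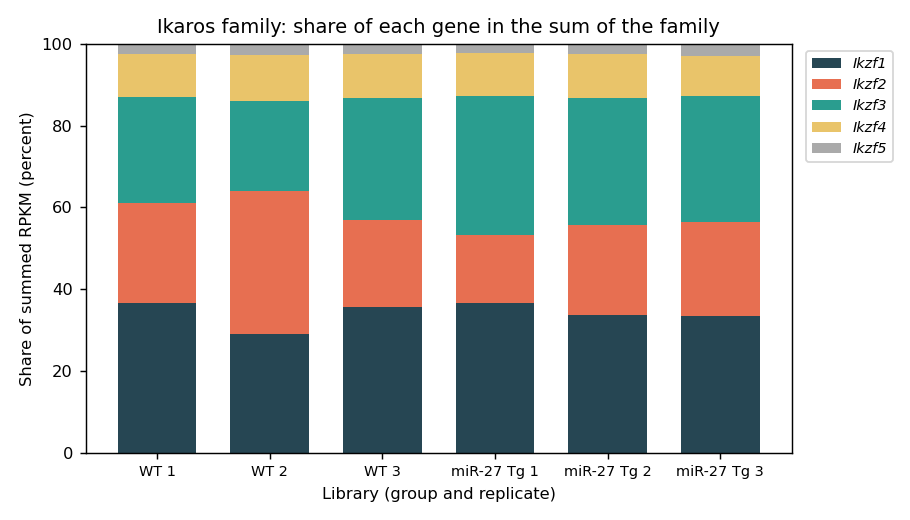
Share of each Ikaros family gene in the summed RPKM of the 5 genes (percent, stacked bars from 0 to 100), 1 bar per library. The Ikzf3 band is 30.8% to 33.9% in miR-27 Tg and 22.0% to 30.01% in WT, and the Ikzf2 band is widest in WT replicate 2 (34.8%).

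In the Runx complex Cbfb was the abundant part. Cbfb (NM_001161458, chromosome 8, 105170674 to 105217988, plus strand) had 443, 349 and 345 RPKM in WT against 355, 335 and 364 in miR-27 Tg. WT replicate 1 stood above the other 5 libraries, which lay close together (log2 fold change -0.10, 95% interval -0.36 to 0.16, adjusted p = 0.791 by limma). Without WT replicate 1 the log2 fold change of Cbfb was 0.02.

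Runx1, the DNA-binding partner best known from blood cell formation (NM_001111021, chromosome 16, 92601466 to 92826074, minus strand), had 125, 86.6 and 107 RPKM in WT against 102, 98.3 and 83.2 in miR-27 Tg. The ranges overlapped (log2 fold change -0.16, 95% interval -0.50 to 0.19, adjusted p = 0.744 by limma). Runx3, which in T cells is best known for CD8 lineage genes and for silencing Cd4 (NM_019732, chromosome 4, 135120645 to 135177990, plus strand), had 82.0, 54.0 and 88.6 RPKM in WT against 94.3, 77.2 and 62.4 in miR-27 Tg. Its libraries spread more than the difference between the groups (log2 fold change 0.07, 95% interval -0.42 to 0.56, adjusted p = 0.941 by limma). The sign of the Runx3 fold change turned to -0.15 without WT replicate 2, to -0.08 without miR-27 Tg replicate 1 and to -0.05 with array weights.

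Runx1 was above Runx3 in all 6 libraries, although the ranges of the pair overlapped in both groups. Runx3 made up 41.1% ± 3.66 of the sum of Runx1 and Runx3 in WT against 44.97% ± 2.71 in miR-27 Tg (SD, n = 3, exact permutation test, p = 0.30). The sum of both was 0.479 ± 0.0831 of the Cbfb level in WT against 0.493 ± 0.0811 in miR-27 Tg (exact permutation test, p = 1.0), so Cbfb messenger RNA exceeded that of its partners in every library.

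The Runx1 rows start at different promoters. The longer of the rows that start at the distal promoter (5776 bases, NM_001111021) had 3035, 1967 and 2330 reads in WT against 2243, 1955 and 1655 in miR-27 Tg. The row that starts at the proximal promoter (NM_001111023) is 1337 bases longer, yet it held 98 to 156 fewer reads in each of the 6 libraries. Both kinds of row share most of their exons, so a read in a shared exon counts for each. The log2 fold changes of the distal rows were -0.16 and -0.15 and those of the proximal rows -0.17 and -0.17.

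The distal promoters of Runx1 and Runx3 are shown around a pair of Runx motifs, in capitals, because the rows that represent both genes here start there. The motif TGTGGT or its complement ACCACA was searched on both strands of the 300 bases around each annotated start (RefSeq, GRCm38.p6).
Runx1, chr16:92826025-92826054, minus strand: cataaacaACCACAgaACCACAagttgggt
Runx3, chr4:135120503-135120532, plus strand: gtccctcaACCACAgaACCACAaggccagg
In both windows the motifs lie 8 bases apart on the same strand, from base 29 downstream of the start in Runx1 and from base 134 upstream in Runx3. A promoter with at least 1 such motif was found for 16.8% of 32851 entries, with at least 2 for 1.81%, and with 2 on the same strand at this spacing, a feature chosen after it was seen, for 7 entries (0.021%). The table had 10 promoters for 6 of the 9 genes (Foxp3, Ikzf1, Ikzf5, Runx1, Runx3 and Cbfb), and the other 8 held no Runx motif in these windows. The Ikaros motif TGGGAA or TTCCCA, which does not overlap the Runx letters, was in 2 of the 10, an upstream Foxp3 promoter and the distal Runx3 promoter, against 25.6% of all promoters. The forkhead motif TGTTTAC or GTAAACA was in 0 of 10, against 3.6%. No binding was measured, and the absence of these letters says nothing about the factor.

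Differences between libraries of the same group were shared by several of the genes. The share of all genes tested with the same deviations was not counted, so the counts below do not set the 9 genes apart. WT replicate 1 was above the WT mean for 8 of 9 genes. WT replicate 2 was below it for 6 (Foxp3, Ikzf1, Ikzf3, Runx1, Runx3 and Cbfb), by 0.43 on the log2 scale for Runx3, and above it for Ikzf2 (by 0.39), Ikzf4 and Ikzf5. In miR-27 Tg, replicate 1 was above the group mean for 7 of 9 genes, with Ikzf2 at -0.21. In miR-27 Tg replicate 3 Foxp3, Ikzf1, Ikzf3, Ikzf4, Runx1 and Runx3 were below it. Ikzf2 thus deviated in the direction opposite to Runx3 in WT replicates 1 to 3 and in miR-27 Tg replicates 1 and 3.

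**Figure D4:**
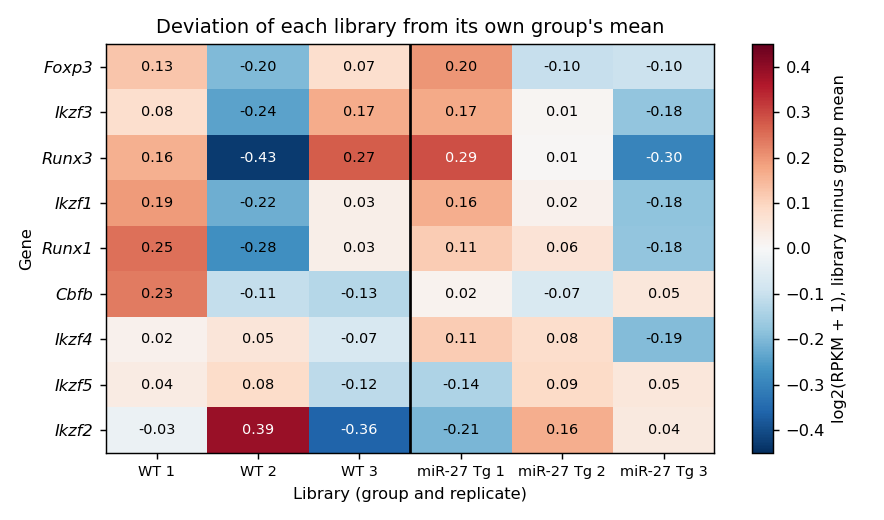
Deviation of each library from the mean of its own group on the log2(RPKM + 1) scale, red above and blue below, with the value printed in each cell and a black line between the groups. WT replicate 2 is low for Runx3 (-0.43) and high for Ikzf2 (0.39), and WT replicate 1 is above its group mean for all genes but Ikzf2.

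As a measure of likeness, the Pearson correlation of log2 levels with Foxp3 over the 6 libraries was taken for 10702 genes with a mean of at least 10 RPKM. With 6 points that share library totals, 922 genes exceeded 0.8, so these values describe and do not single out a gene. The most alike were Ppp1r13b (0.997), Snora75 (0.991) and Syvn1 (0.991). Among the other 8 genes, Ikzf3 was the most like Foxp3 (0.907) and Ikzf5 the least (-0.818), with Ikzf2 at -0.814. By Spearman rank correlation Runx3 was the most like Foxp3 (0.886), with Ikzf3 at 0.6 and Ikzf5 again the least (-0.657). Most reads of Ikzf5 cannot be assigned to it alone, so its values here may not describe Ikzf5.

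All 5 genes with a miR-27 seed match had a log2 fold change below 0 (-0.51 to -0.10; Cbfb at 0.02 without WT replicate 1), and of the 4 without a match 1, Ikzf4, was below 0. Over the 11815 tested genes with a 3′ UTR searched, 63.5% of the 1951 with a match and 49.9% of the 9864 without one were below 0. Their median log2 fold changes were -0.06 and 0.00056. These sets were not matched for 3′ UTR length, which was 2055 bases or more for each of the 9 genes against a median of 1072. Ikzf5 is among the 5 with a match, and most of its reads cannot be assigned to it alone. None of the 9 genes passed the test, and the direction of 5 genes is given as a description.

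Genes of the surrounding network were taken from lists, chosen with earlier results of these data known, and counted in the same fit. Over all 13621 genes tested, 1.03% passed, 13.0% had an unadjusted p under 0.05 by limma and 18.5% had groups that did not overlap. Of 8 tested genes of the Runx family and its Groucho and ETO co-repressors, limma called 0, also with 0 at an unadjusted p under 0.05 (median log2 fold change 0.20). The smallest p belonged to Tle2 (7.51 ± 1.47 and 11.1 ± 2.40 RPKM) and Aes (1763 ± 159 and 2041 ± 47.4). Of 16 genes of the NuRD, Sin3 and CtBP complexes that Ikaros proteins recruit, 0 passed and 0 had an unadjusted p under 0.05 (median 0.05). The helicase gene Chd3 had 1104 ± 136 and 1308 ± 135 RPKM, and Ctbp1 473 ± 49.4 and 545 ± 34.6.

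Among 22 transcription factors that bind or act with Foxp3, 1 passed and 4 had an unadjusted p under 0.05 (median 0.02, with 11 above and 11 below 0). Rora, a nuclear receptor, fell from 62.2, 54.8 and 59.97 RPKM in WT to 23.2, 34.3 and 24.2 in miR-27 Tg (log2 fold change -1.11, SE 0.16, adjusted p = 0.0292 by limma). Of 16 enzymes that modify Foxp3 protein 0 passed, and 3 had an unadjusted p under 0.05 (median 0.07). They included the deacetylase gene Hdac9, with 14.4 ± 2.28 and 6.75 ± 2.54 RPKM (adjusted p = 0.124), and the kinase gene Pim1, with 1006 ± 23.9 and 1250 ± 158 (adjusted p = 0.269). Of 23 regulators of the Foxp3 locus 0 passed and 2 had an unadjusted p under 0.05 (median 0.05). These were Nr4a2, a nuclear receptor induced by antigen, with 103 ± 33.7 and 54.8 ± 12.4 RPKM (adjusted p = 0.163), and Satb1, a chromatin organiser, with 409 ± 98.4 and 571 ± 106 (adjusted p = 0.337).

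Genes that are activated with Foxp3 in Treg cells were measured in the same libraries, in which Foxp3 itself did not pass. Of 19 such genes 2 fell and none of the other 17 passed. At an unadjusted p under 0.05 there were 13 (11 lower and 2 higher), against 13.0% of all genes. For 16 of the 19 the fold change was below 0, and the median log2 fold change was -0.36, against -0.01 over all genes. Itgae, the integrin chain CD103, had 272, 393 and 326 RPKM in WT against 66.5, 87.9 and 82.2 in miR-27 Tg (log2 fold change -2.05, adjusted p = 0.00534 by limma). Tigit, a co-inhibitory receptor, had 264, 189.7 and 254 RPKM in WT against 75.5, 100.1 and 91.0 in miR-27 Tg (-1.39, adjusted p = 0.0177 by limma). No library of one group reached the other for either gene, as for 18.5% of all genes tested. Both genes are named because they passed the test in these same libraries, so this separation is no further support.

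Of 14 genes that Foxp3 represses, 1 fell and 13 did not pass (median -0.13), and 5 had an unadjusted p under 0.05 (4 lower and 1 higher). The higher gene was Satb1, also counted above among the partners of Foxp3 and among the regulators of its locus. Ifng, the type II interferon, had 80.2, 59.1 and 55.8 RPKM in WT against 26.6, 34.0 and 24.4 in miR-27 Tg (log2 fold change -1.17, adjusted p = 0.0343 by limma). Of 13 tested genes under Runx-Cbfb control in T cells, 3 fell and 10 did not pass (median -0.02): Itgae and Ifng, also counted above, and Gzmb, the protease granzyme B, with 142, 87.0 and 207 RPKM in WT against 29.6, 25.1 and 48.0 in miR-27 Tg (-2.02, adjusted p = 0.0395 by limma). In that list 6 genes had an unadjusted p under 0.05 (4 lower and 2 higher). The CD8 chain genes in it were Cd8a, with 16.2 ± 5.55 and 16.6 ± 8.63 RPKM, and Cd8b1, given above, whose groups did not overlap (unadjusted p = 0.0194, adjusted p = 0.258 by limma, and past the threshold with the replicate block). Cd4, also in it, had 1946 ± 85.4 and 2207 ± 88.0 RPKM (adjusted p = 0.460). The 5 distinct genes called over these lists became 1, 3 and 0 without WT replicates 1, 2 and 3 and 2, 4 and 1 without miR-27 Tg replicates 1, 2 and 3, and Itgae was called in each of these fits but that without WT replicate 3. None of the 5 was called with no filter on low values.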

How the data were processed

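RNA of 6 libraries was aligned with STAR 2.2.0c and counted with HOMER (mm10, GRCm38), per the submitters' processing notes. Reads of both strands were counted in exons of RefSeq transcripts and expressed as RPKM on a common total of 10000000 reads per library, per the file headers, and the authors deposited these RPKM values for 34711 transcript rows. A read in an exon shared by several transcripts counts for each, and reads where genes of opposite strands overlap cannot be separated. Low values were whole multiples of a fixed unit (100% within 0.1 of a read), which gave the depth and the read numbers quoted. From the deposited values the row with the highest mean was kept per symbol, genes with a mean of at least 1 RPKM (13621) were tested as log2(RPKM + 1) with limma 3.58.1 (limma-trend, R 4.3.3), two-sided, adjusted by Benjamini-Hochberg over the 13621 genes with a threshold of 0.05 and without a replicate block. The script was tested on simulated data. Fold changes are on that scale and understate those of low genes. Shares were compared by exact permutation tests over the libraries. The 9 genes, the gene lists and the tests were chosen with earlier results of these data known. Named are all 9 genes, every listed gene past the threshold, or the pair with the smallest p where none passed, Mir27a, the 3 genes most like Foxp3, and further genes chosen after their values were seen (Cd3e, Il2ra, Cd8a, Cd8b1, Klrd1, Ctss). Older symbols (Folr4, Tle5 with Aes) were counted once, and Trac and Tcrb were not matched. Protein sequences were not used here. Alternatives were other pseudocounts, filters, scalings and transcript rows, no trend, array weights, a replicate block and each library left out. One of the cell type marker lists is not reported here.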

Additional observations from a re-analysis of the deposited data

How the results depend on the processing

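The count of 0 among the 9 genes held in all 17 alternatives. With 1.03% of all genes called in the main fit, 0 of 9 is a likely count, so this does not show stable levels. Over all genes tested, 51 genes rose and 89 fell in miR-27 Tg, against 22 and 15 with no filter on low values, 81 and 144 with array weights, 91 and 185 with a replicate block, and 3 to 14 and 1 to 44 with 1 library left out. Among the network lists 5 genes were called, 10 with the replicate block and 0 to 4 with 1 library left out. Deviations of same-numbered libraries correlated at 0.368, 0.097 and 0.037 for replicates 1 to 3. WT replicate 1 correlated at -0.217 and -0.194 with miR-27 Tg replicates 2 and 3, so the replicate 1 libraries were the most alike. WT replicates 2 and 3 correlated best with miR-27 Tg replicates 3 and 2 (0.154 and 0.119). The numbers were therefore not taken to pair all libraries, and a link between the replicate 1 libraries was not tested. The block changed no call among the 9 genes. The log2 fold change kept its sign in every alternative for 7 of the 9. That of Runx3 was -0.054 with array weights and -0.15 to 0.22 with 1 library left out (-0.15 with WT replicate 2 left out, -0.075 with miR-27 Tg replicate 1 left out), and that of Cbfb was 0.016 without WT replicate 1, the highest of a range from -0.16. With 1 library left out the differences in share were -1.51 to 2.21 percentage points for Ikzf1, -9.14 to -2.39 for Ikzf2, 3.98 to 7.99 for Ikzf3, -0.618 to -0.177 for Ikzf4 and -0.149 to 0.198 for Ikzf5, that of Runx3 in Runx1 plus Runx3 was 2.33 to 5.95, and that of the ratio to Cbfb -0.0244 to 0.0599. The cause was not tested. With 3 libraries a group the precision is that of the intervals given.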
